A study of Danio rerio with 16 samples.

Results

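The genes described here are those of the cell division cycle and of DNA replication, measured by RNA-sequencing in hearts of rbfox-deficient zebrafish. They were chosen by symbol, from names that begin as those of the replicative MCM, GINS, ORC, RFC and polymerase subunits, Cdc6, Cdc45, PCNA, ribonucleotide reductase, cyclins A, B, D and E, their kinases and inhibitors, Cdc20, Cdc25, Bub1, Aurora and Polo-like kinases, Top2a, Mki67, CENP proteins and E2F factors. This choice took 83 of the 15419 genes in the deposited count tables. A dividing cell first loads the MCM helicase onto replication origins, then fires those origins and copies its DNA with the polymerases, their sliding clamp and a supply of deoxynucleotides, and finally separates the chromosomes in mitosis. D-type cyclins carry growth signals into this cycle, cyclin-dependent kinase (CDK) inhibitors hold it back, and E2F factors set the transcription of most replication genes. In the embryonic zebrafish heart, cardiomyocytes are added at the poles from progenitors and also divide. The paper places the stage sampled here, 48 hours post fertilization, before myocardial proliferation. In rbfox-deficient ventricles it reports cardiomyocyte numbers equal to control at this stage and lower ones later. It also reports that ventricular cardiomyocytes failed to proliferate over the following day, from a lack of EdU label in their DNA. That measurement was of cardiomyocytes, whereas the libraries here hold RNA of whole hearts.

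The DKO group carried frameshift deletions, made with CRISPR-Cas9, in both copies of rbfox1l (allele chb5) and of rbfox2 (allele chb6), which encode RNA-binding regulators of splicing. Control hearts came from siblings according to the sample labels and from wild type embryos according to the series description. The paper also names them sibling controls and states that mutants were compared with siblings of their own clutch. Which pools shared a clutch is not given there. All embryos were of the Tubingen strain, carried the myl7:GFP reporter that marks heart muscle, and were dissected 48 hours post fertilization. Each of the 8 DKO and 8 control libraries came from its own pool of 35 to 70 hearts. The mutations were present in every cell of the embryo and not only in the heart.

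Both targeted genes were lower in the DKO libraries. The level of rbfox1l averaged 64.0 ± 21.3 CPM in DKO and 441 ± 129 CPM in control hearts (SD, n = 8 each), and that of rbfox2 averaged 30.4 ± 4.82 CPM in DKO and 89.2 ± 35.8 CPM in control hearts (SD, n = 8 each), where CPM is the count scaled to library size with TMM factors. The groups did not overlap for either gene (log2 fold change -2.78 ± 0.22 (SE), edgeR adjusted p = 7.30e-08 for rbfox1l and log2 fold change -1.55 ± 0.20 (SE), edgeR adjusted p = 1.35e-05 for rbfox2). Reads counted on genes numbered 9321265 to 18783628 in DKO and 8809208 to 12991978 in control libraries, and the 83 genes took 0.555% to 0.910% of them in DKO and 0.460% to 0.688% in control libraries. Any 2 libraries of a group differed by more than counting noise, with a chi-square per gene of at least 20.5 among DKO and 10.3 among control libraries, so each was kept as a replicate. Control 5 stood apart from the other 15 libraries in an ordination of the most variable genes. Without it, 12 of the genes described here were higher and 5 lower, where 1578 of 11911 genes tested were higher and 1578 lower.

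Of the 83 genes, 73 had enough reads to be tested. In DKO hearts 11 of them were higher and 5 lower at an adjusted p under 0.05, while 57 did not pass. Over all 11750 genes tested, 13.2% were higher and 13.9% lower. The 11 higher genes encode parts of the replication machinery (mcm2, mcm4, mcm7, pola1, rfc1, rrm1), mitotic or centromere proteins (mki67, cdc25b, cenpe, cenpo) and a repressor of the E2F family (e2f7). The 5 lower genes were the D-type cyclins ccnd2a and ccnd2b, the CDK inhibitors cdkn1a and cdkn1ca, and aurkaip1, which is matched by its name only.

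The median log2 fold change of the 73 genes was 0.15, beside 0.02 over all genes tested, and 51 of the 73 were positive, beside 52.3% of all genes. By unadjusted p, 22 were higher and 5 lower, where 19.2% and 18% of all genes were. In 3 genes, ccnd2a, ccnd2b and aurkaip1, every DKO library lay below every control library, a pattern seen in 4.38% of all genes, and in 0 genes did every DKO library lie above every control library, as 1.29% of all genes did. With the thresholds of the study's methods (adjusted p under 0.05, more than 1.5-fold, FPKM over 5 in at least 1 library), ccnd2a and aurkaip1 were lower (4.66% of all genes) and 0 genes were higher (3.32% of all genes) by edgeR and by DESeq2 alike. The largest rise, in cenpo, was 0.51 on the log2 scale, under the 0.585 that this fold requires. In bulk hearts, fewer cells of a type and less RNA per cell cannot be told apart.

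The count of 11 higher genes moved with single libraries, whereas the count of 5 lower genes did not. The higher count was 3 without DKO 6, 4 without DKO 1, 5 without DKO 4, 5 without DKO 5 and 9 without DKO 2. It rose to 15 without DKO 3, without DKO 7 and without DKO 8. Among the controls, it was 4 without Control 1, 6 without Control 3, 6 without Control 7, 5 without Control 8 and 8 without Control 6. It rose to 12 without Control 5, 14 without Control 4 and 16 without Control 2. In the 16 fits with 1 library left out, 1321 to 1660 of all genes were higher and 1435 to 1712 lower. Only rrm1, mcm4 and cenpe of the higher genes passed whichever of the 16 libraries was left out, as did all 5 lower genes.

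**Figure D1:**
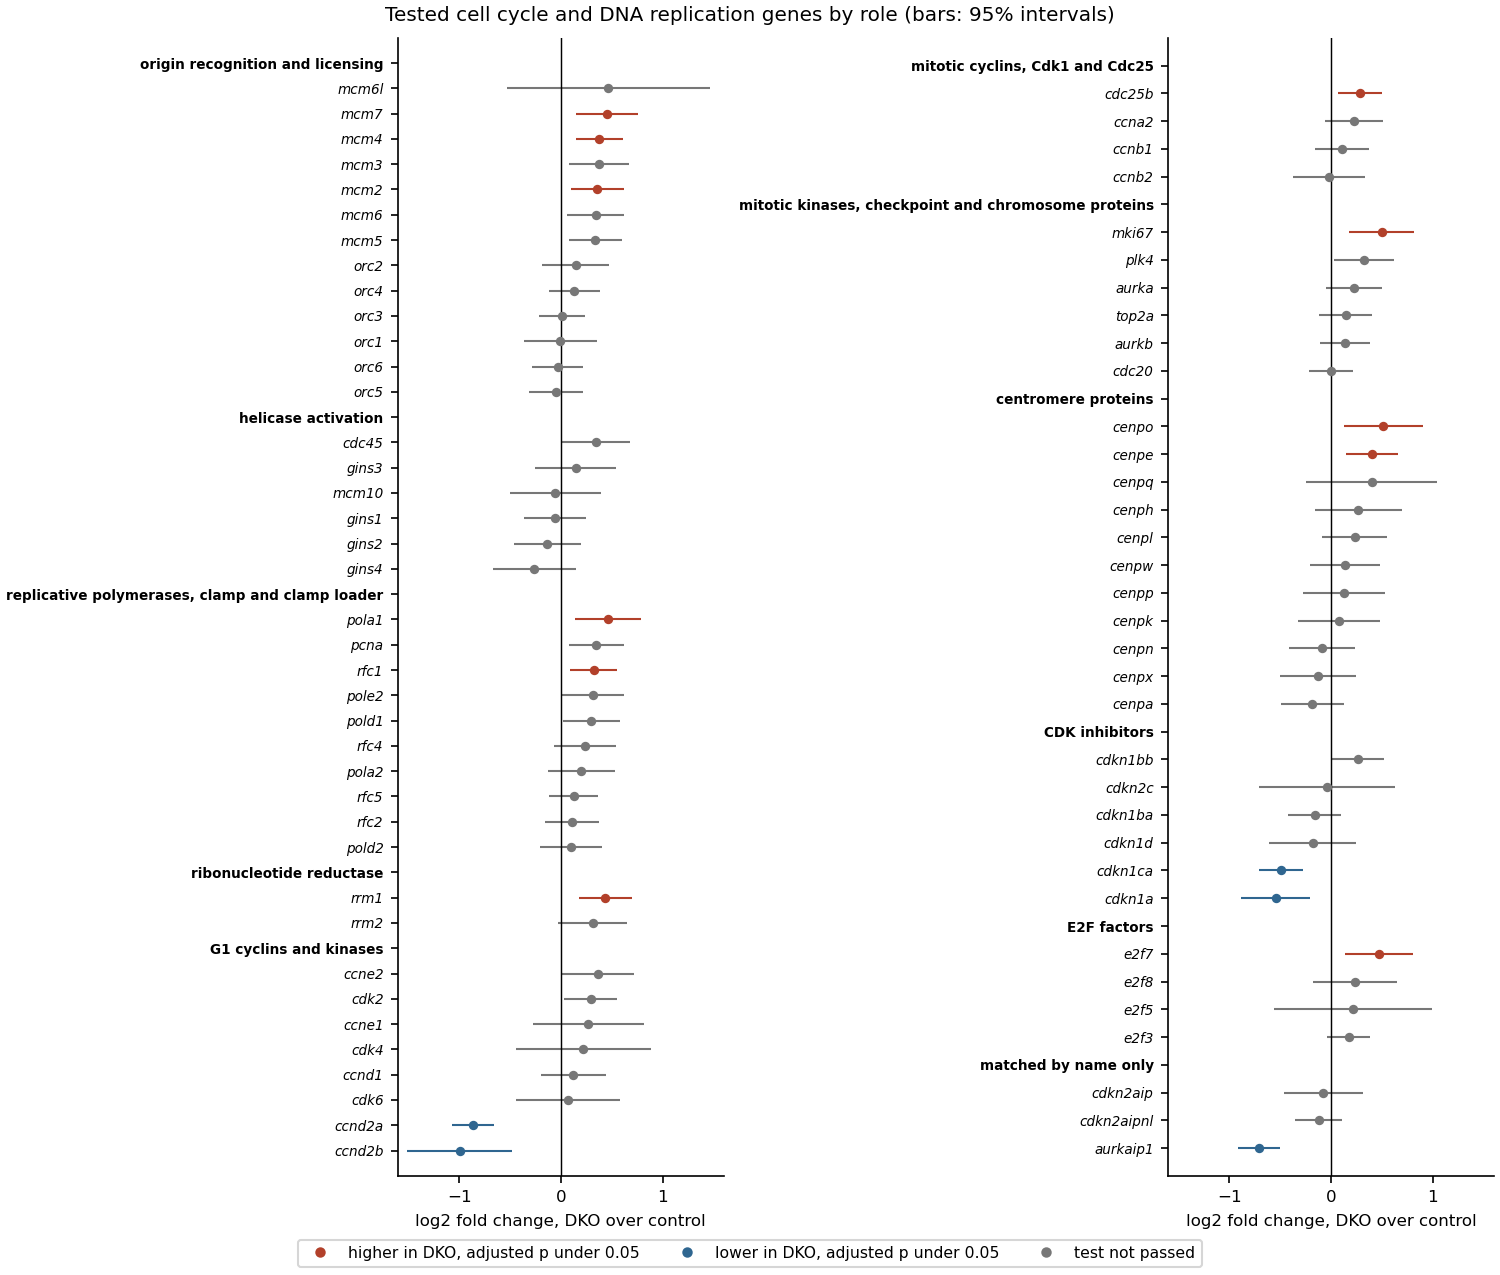
Log2 fold change, DKO over control, of the 73 tested genes by role, with 95% intervals from edgeR; red points are the 11 genes higher and blue points the 5 genes lower at an adjusted p under 0.05. Most points lie to the right of 0 by less than 0.5, and ccnd2b, ccnd2a and aurkaip1 lie farthest to the left. When libraries are scaled on cardiomyocyte markers instead, ccnd2a, aurkaip1, cdkn1ca and cdkn1a move to the right of 0. That scaling puts the median log2 fold change of all genes at 0.90.

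Of 13 tested genes of origin recognition and licensing, 3 were higher, where 13.2% of all genes were. All 3 encode subunits of the Mcm2 to Mcm7 ring that unwinds DNA at the fork. The most significant of them, mcm4, measured 222 to 361 CPM in DKO libraries (median 309), against 191 to 258 CPM in control libraries (median 235). Of the 8 DKO libraries, 5 lay above every control library (log2 fold change 0.38 ± 0.11 (SE), edgeR adjusted p = 0.0145). A second subunit, mcm7, measured 135 to 308 CPM in DKO libraries (median 238), against 127 to 231 CPM in control libraries (median 163), and 4 DKO libraries lay above all controls while DKO 3 was the second lowest of all 16 (log2 fold change 0.45 ± 0.15 (SE), edgeR adjusted p = 0.0250). The subunit mcm2 measured 314 to 552 CPM in DKO libraries (median 433), against 265 to 437 CPM in control libraries (median 323). Here too 4 DKO libraries exceeded every control, and the other 4 were within the control range (log2 fold change 0.36 ± 0.13 (SE), edgeR adjusted p = 0.0391).

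The remaining subunits of the ring fell just outside the threshold in edgeR with TMM. They were mcm5 (log2 fold change 0.34, edgeR adjusted p = 0.0506), mcm3 (0.38, edgeR adjusted p = 0.0564) and mcm6 (0.34, edgeR adjusted p = 0.0661). With DESeq2, mcm5 also passed (adjusted p = 0.0467), and with library size alone or limma on FPKM all 6 ring genes passed. Over all genes, 22.2% were higher with library size alone and 25.5% with limma on log2(FPKM + 1). All 6 ring genes had a positive fold change between 0.34 and 0.45, and their direction was the same under every scaling tried. Each of these scalings left the median log2 fold change of all genes near the 0.02 of TMM or raised it, to 0.90 at most. The unchanged positive direction is therefore no test of these rises. Summed over the ring, DKO libraries held 1337 to 2233 CPM and control libraries 1202 to 1802 CPM. In DKO 1, 2 and 6 all 6 ring genes exceeded every control library, in DKO 4 and DKO 5 it was 5 of 6, and in DKO 3, 7 and 8 it was 0 of 6. The same count was not made over all genes, so whether this pattern is particular to the ring was not tested. A separate locus named as a copy of mcm6, mcm6l, had only 352 reads in all and did not pass (log2 fold change 0.47, 95% interval -0.53 to 1.46).

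In the origin recognition complex, which marks where the ring is loaded, no gene passed. Its 6 subunits orc1 to orc6 had log2 fold changes of -0.05 to 0.15. Among them orc6 measured 40.8 to 76.5 CPM in DKO libraries (median 61.8), against 52.0 to 75.1 CPM in control libraries (median 61.2). The groups overlapped, with 2 DKO libraries below every control and 1 above every control (95% interval of the log2 fold change -0.28 to 0.22). The difference between this complex and the ring was not tested.

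The factors that turn the loaded ring into a working helicase, Cdc45, the 4 GINS proteins and Mcm10, contained no gene that passed with TMM in edgeR or with DESeq2, and 1 of the 6 was higher by unadjusted p. That gene, cdc45, passed with library size alone, and all 6 passed with scaling on cardiomyocyte markers. Over all genes, 22.2% were higher with library size alone and 74.2% with scaling on cardiomyocyte markers. The median log2 fold change of all genes was 0.17 and 0.90 in these settings. The level of cdc45 was 26.5 to 43.0 CPM in DKO libraries (median 35.9), against 14.9 to 35.4 CPM in control libraries (median 27.6). Of the DKO libraries, 5 exceeded every control library (log2 fold change 0.34 ± 0.16 (SE), edgeR adjusted p = 0.127). The subunit gins2 of the GINS complex measured 20.4 to 42.2 CPM in DKO libraries (median 29.7), against 23.9 to 43.2 CPM in control libraries (median 35.5) (log2 fold change -0.13 ± 0.16 (SE), edgeR adjusted p = 0.602), a negative value that became 0.02 with library size alone and 0.82 with scaling on cardiomyocyte markers. Log2 fold changes of gins1, gins3, gins4 and mcm10 were -0.06, 0.15, -0.26 and -0.06, none past the test.

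All 10 tested genes of the replicative polymerases, the clamp and its loader had a positive log2 fold change, of 0.10 to 0.46, and 2 were higher past the test. Of all genes tested, 52.3% were positive and 13.2% higher past the test. The polymerase alpha-primase complex makes the primers for both strands, and pola1 encodes its polymerase subunit. The level of pola1 was 54.2 to 115 CPM in DKO libraries (median 77.3), against 45.1 to 74.1 CPM in control libraries (median 55.6). In 4 of the DKO libraries it exceeded every control (log2 fold change 0.46 ± 0.16 (SE), edgeR adjusted p = 0.0320). The large subunit of the clamp loader, rfc1, measured 40.4 to 61.4 CPM in DKO libraries (median 44.7), against 30.2 to 45.2 CPM in control libraries (median 38.7). All 8 DKO libraries lay above the control median and 4 above every control (log2 fold change 0.32 ± 0.11 (SE), edgeR adjusted p = 0.0348).

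The sliding clamp pcna had the highest level per gene length of the 73 genes with an FPKM value, at a mean of 165.5 FPKM in DKO and 117.5 FPKM in control libraries. FPKM here are the authors' values per kilobase of gene span, introns included. In CPM, pcna measured 565 to 962 CPM in DKO libraries (median 818), against 479 to 703 CPM in control libraries (median 606). In 5 DKO libraries it exceeded every control and in DKO 3, 7 and 8 it lay within the control range (log2 fold change 0.35 ± 0.13 (SE), edgeR adjusted p = 0.0523), just outside the threshold, and with DESeq2 the adjusted p was 0.0427. The other polymerase subunits pola2, pold1, pold2 and pole2 had log2 fold changes of 0.20, 0.30, 0.10 and 0.32, and the other clamp loader subunits rfc2, rfc4 and rfc5 of 0.11, 0.24 and 0.13.

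Ribonucleotide reductase, the enzyme that makes deoxynucleotides, had its large subunit gene rrm1 higher, with the lowest adjusted p of all higher genes. Its level averaged 399 ± 91.9 CPM in DKO and 294 ± 34.1 CPM in control hearts (SD, n = 8 each). It measured 271 to 550.2 CPM in DKO libraries (median 368), against 251 to 346 CPM in control libraries (median 292), so that 7 of the 8 DKO libraries lay above every control and DKO 7 lay among the controls (log2 fold change 0.44 ± 0.12 (SE), edgeR adjusted p = 0.0123). The small subunit rrm2 measured 230.2 to 496 CPM in DKO libraries (median 319), against 182 to 397 CPM in control libraries (median 243). Its groups overlapped and it did not pass (log2 fold change 0.31 ± 0.16 (SE), edgeR adjusted p = 0.169).

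**Figure D2:**
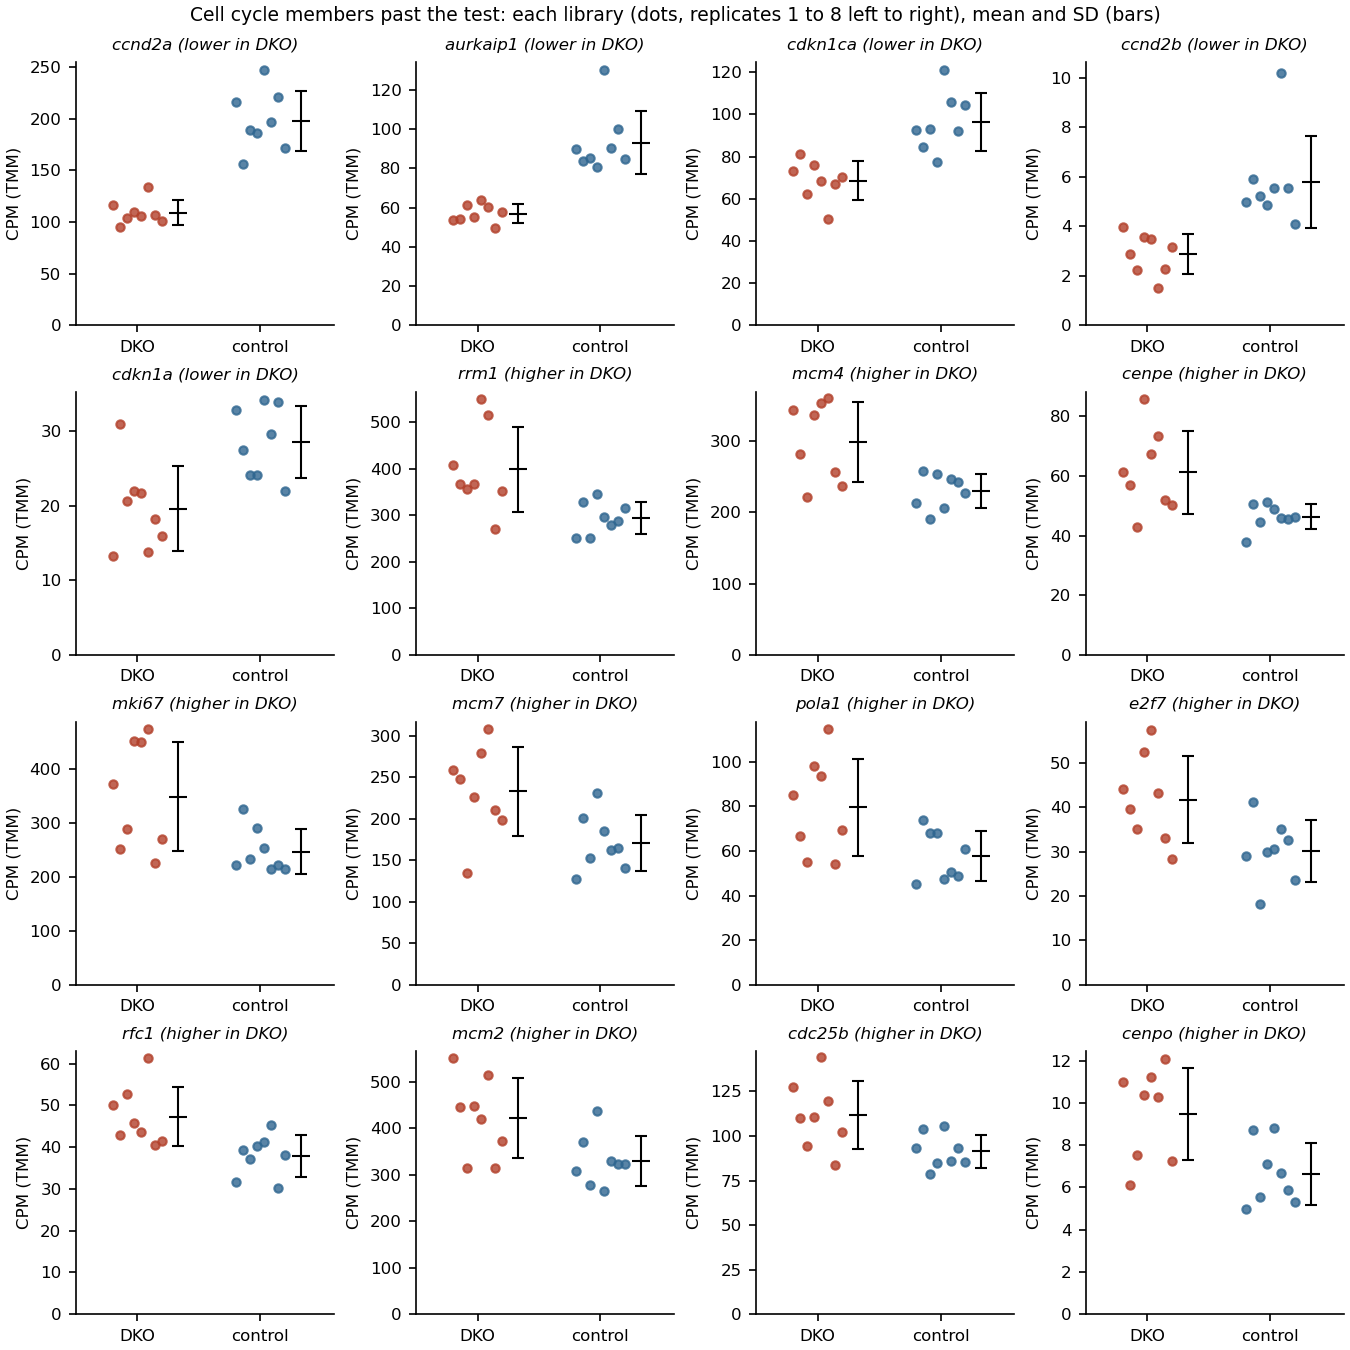
CPM in each library of the 16 genes past the test, lower genes first, with DKO on the left and control on the right of each panel; bars give the mean and SD of 8 libraries. The groups separate fully in ccnd2a, aurkaip1 and ccnd2b, while in every higher gene some DKO libraries lie within the control range. The drop of ccnd2a, aurkaip1, cdkn1ca and cdkn1a turns positive when libraries are scaled on cardiomyocyte markers. That scaling puts the median log2 fold change of all genes at 0.90.

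Among the G1 cyclins and kinases 2 of 8 genes were lower and 0 higher with TMM in edgeR and with DESeq2 (2 higher by unadjusted p), and both lower genes encode cyclin D2, the activator of Cdk4 and Cdk6. With library size alone 2 were lower and 2 higher (cdk2 and ccne2), and with scaling on cardiomyocyte markers 0 were lower and 6 higher. Over all genes 13.9% were lower and 13.2% higher with TMM, and 9.96% and 22.2% with library size alone. With scaling on cardiomyocyte markers these shares were 1.52% and 74.2%. The level of ccnd2a averaged 109 ± 11.8 CPM in DKO and 198 ± 29.1 CPM in control hearts (SD, n = 8 each). It measured 94.8 to 134 CPM in DKO libraries (median 106), against 157 to 247 CPM in control libraries (median 193), so the highest DKO library stayed below the lowest control (log2 fold change -0.86 ± 0.10 (SE), edgeR adjusted p = 1.69e-06, 95% interval -1.07 to -0.66). The drop held in each of the 16 fits with 1 library left out, at -0.90 to -0.81, and with library size alone, at -0.70, but was 0.04 when libraries were scaled on cardiomyocyte markers. That scaling put the median log2 fold change of all genes at 0.90, where TMM put it at 0.02.

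The second cyclin D2 gene, ccnd2b, was expressed near the lower limit of the test, with 784 reads in all and no library above 0.641 FPKM. It measured 1.51 to 3.97 CPM in DKO libraries (median 3.03), against 4.08 to 10.2 CPM in control libraries (median 5.39), again without overlap (log2 fold change -0.995 ± 0.25 (SE), edgeR adjusted p = 0.00470). With scaling on cardiomyocyte markers its log2 fold change was -0.05 and did not pass, where the median of all genes was 0.90. Cyclin D1 was the more abundant D-type cyclin per gene length, at 41.1 FPKM in DKO and 33.7 FPKM in control libraries, where ccnd2a had 8.79 and 14.3 FPKM. In CPM, ccnd1 measured 218 to 387 CPM in DKO libraries (median 295), against 197 to 447 CPM in control libraries (median 246.2). It did not pass, with a log2 fold change of 0.12 and a 95% interval of -0.20 to 0.44 that shares no value with that of ccnd2a; the difference between these genes was not tested.

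Among the partners that act next, cdk2 and its cyclin ccne2 had positive values without passing. The kinase cdk2 measured 57.2 to 103 CPM in DKO libraries (median 86.3), against 53.7 to 81.9 CPM in control libraries (median 62.1) (log2 fold change 0.29 ± 0.12 (SE), edgeR adjusted p = 0.0879), with 5 DKO libraries above every control. Log2 fold changes were 0.36 for ccne2, 0.27 for ccne1, 0.22 for cdk4 and 0.07 for cdk6. The last 3 of these had 663 to 890 reads in all, and their intervals were wide, for cdk4 -0.44 to 0.89.

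Of 6 tested CDK inhibitors, 2 were lower and 0 higher with TMM in edgeR and with DESeq2 (1 higher by unadjusted p), and 5 had a negative fold change. With library size alone 1 was lower, 1 higher (cdkn1bb) and 4 negative, and with scaling on cardiomyocyte markers 0 were lower, 4 higher and all 6 positive. Over all genes 13.9% were lower with TMM, and 9.96% were lower and 22.2% higher with library size alone. With scaling on cardiomyocyte markers 74.2% of all genes were higher and 94.3% positive, and their median log2 fold change was 0.90. The gene cdkn1ca, an inhibitor of the Kip family associated with cell cycle exit, averaged 68.6 ± 9.33 CPM in DKO and 96.5 ± 13.7 CPM in control hearts (SD, n = 8 each). It measured 50.3 to 81.1 CPM in DKO libraries (median 69.5), against 77.6 to 121 CPM in control libraries (median 92.9). In 7 DKO libraries it lay below every control and DKO 2 was the exception (log2 fold change -0.49 ± 0.11 (SE), edgeR adjusted p = 0.00156), but with scaling on cardiomyocyte markers it was 0.43 and did not pass.

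The p53 target cdkn1a, an inhibitor that arrests cells after DNA damage, measured 13.3 to 30.9 CPM in DKO libraries (median 19.5), against 21.9 to 34.2 CPM in control libraries (median 28.5). Here 6 DKO libraries lay below every control, and DKO 2 and DKO 4 lay within the control range (log2 fold change -0.54 ± 0.16 (SE), edgeR adjusted p = 0.0166). This call was lost with library size alone (log2 fold change -0.39, edgeR adjusted p = 0.0628). With scaling on cardiomyocyte markers the value was 0.39, where the median of all genes was 0.90. The Kip family genes cdkn1bb, cdkn1ba and cdkn1d had log2 fold changes of 0.27, -0.16 and -0.18, and the Ink4 family gene cdkn2c of -0.04, none past the test.

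Of 4 tested mitotic cyclin and Cdc25 genes 1 was higher, where 13.2% of all genes were. This was cdc25b, a phosphatase that activates Cdk1 at entry into mitosis. It measured 83.9 to 144 CPM in DKO libraries (median 110.3), against 78.8 to 105 CPM in control libraries (median 89.7). In 5 DKO libraries it exceeded every control (log2 fold change 0.29 ± 0.10 (SE), edgeR adjusted p = 0.0456), and 11 of the 16 fits without 1 library lost the call. The cyclins ccna2, ccnb1 and ccnb2 had log2 fold changes of 0.22, 0.11 and -0.02 and did not pass.

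Among 6 tested genes of mitotic kinases, checkpoint and chromosome proteins, 1 was higher, where 13.2% of all genes were. This was mki67, a proliferation marker that coats mitotic chromosomes. It measured 226 to 475 CPM in DKO libraries (median 331), against 214 to 326 CPM in control libraries (median 228). In DKO 1, 4, 5 and 6 it exceeded every control, while the other DKO libraries spread over the control range (log2 fold change 0.50 ± 0.15 (SE), edgeR adjusted p = 0.0204). The anaphase activator cdc20 measured 59.0 to 90.5 CPM in DKO libraries (median 67.7), against 58.4 to 86.6 CPM in control libraries (median 69.3). The groups had almost the same mean, with a log2 fold change of -0.00 and a 95% interval of -0.22 to 0.22. The topoisomerase top2a, which untangles sister chromatids, and the kinases aurka, aurkb and plk4 had log2 fold changes of 0.14, 0.23, 0.14 and 0.32, none past the test.

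Of 11 tested centromere genes 2 were higher, where 13.2% of all genes were. The kinesin cenpe, which moves chromosomes to the spindle equator, measured 42.8 to 85.8 CPM in DKO libraries (median 59.2), against 38.0 to 51.2 CPM in control libraries (median 45.9). In 6 DKO libraries it exceeded every control (log2 fold change 0.40 ± 0.12 (SE), edgeR adjusted p = 0.0193). The inner kinetochore gene cenpo, at much lower counts, measured 6.09 to 12.1 CPM in DKO libraries (median 10.3), against 4.99 to 8.81 CPM in control libraries (median 6.29) (log2 fold change 0.51 ± 0.19 (SE), edgeR adjusted p = 0.0467), and 11 of the 16 fits without 1 library lost the call. The centromeric histone cenpa had a log2 fold change of -0.19, the lowest of the role, and the other 8 genes lay between -0.12 and 0.40 without passing.

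All 4 tested E2F genes had a positive fold change and 1 passed, where 52.3% of all genes were positive and 13.2% higher. The atypical repressor e2f7 measured 28.3 to 57.4 CPM in DKO libraries (median 41.5), against 18.2 to 41.2 CPM in control libraries (median 30.2). In 4 DKO libraries it exceeded every control (log2 fold change 0.47 ± 0.16 (SE), edgeR adjusted p = 0.0340). The activator e2f3, the repressor e2f5 and the second atypical repressor e2f8 had log2 fold changes of 0.17, 0.22 and 0.24.

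The choice by symbol also took 3 genes that are not cell cycle factors by function or are known only as binding partners of one. The gene aurkaip1, whose mammalian protein binds Aurora A and is a subunit of the mitochondrial ribosome, measured 49.6 to 63.7 CPM in DKO libraries (median 56.5), against 80.6 to 130.1 CPM in control libraries (median 87.5). The groups did not overlap (log2 fold change -0.71 ± 0.10 (SE), edgeR adjusted p = 2.18e-05). With scaling on cardiomyocyte markers the value was 0.18, where the median of all genes was 0.90. For cdkn2aip and cdkn2aipnl the log2 fold changes were -0.07 and -0.12, neither past the test.

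Some central cell cycle genes had almost no reads in these tables and were left out of the test by the filter on low counts. Over all 16 libraries cdk1 had 9 reads, plk1 31, cdc6 2 and rrm2b 4, the clamp loader subunit rfc3 had 85, and cenps, e2f4 and mcm3l had none. The cyclin ccna1 had 215 reads and cdc25d 152. Their functional partners were well covered, with 14720 reads on ccnb1 and 129397 on pcna, and why the counts of cdk1, plk1 and cdc6 are near 0 was not tested. Reads that aligned to more than 1 place, 12.8% to 16.4% per library, were not counted on genes.

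Of the 11 higher genes, the number above every control library was 11 in DKO 1, 6 in DKO 2, 2 in DKO 3, 10 in DKO 4, 9 in DKO 5, 11 in DKO 6, 2 in DKO 7 and 1 in DKO 8. In DKO 3 these were rfc1 and rrm1, in DKO 7 cenpe and cenpo, and in DKO 8 rrm1. The 11 genes were picked as higher in these same libraries, so high counts are built in. The same count was not made over all genes called higher, so whether any library stands out for cell cycle genes was not tested. Over whole roles, with the genes that did not pass included and expressed as the mean log2 CPM of a role minus its control mean, the polymerase group lay at 0.30 to 0.60 in DKO 1, 2, 4, 5 and 6, and at -0.12 to 0.00 in DKO 3, 7 and 8. Its control values spanned -0.23 to 0.21. Ribonucleotide reductase reached 0.93 in DKO 5 and 0.72 in DKO 6, and was -0.13 in DKO 7. CDK inhibitors lay at -0.28 to 0.04 in DKO and -0.41 to 0.24 in control libraries, so that as a group they overlapped entirely. Control 2 was the highest control in the polymerase, G1 and mitotic roles, at 0.21 to 0.26.

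**Figure D3:**
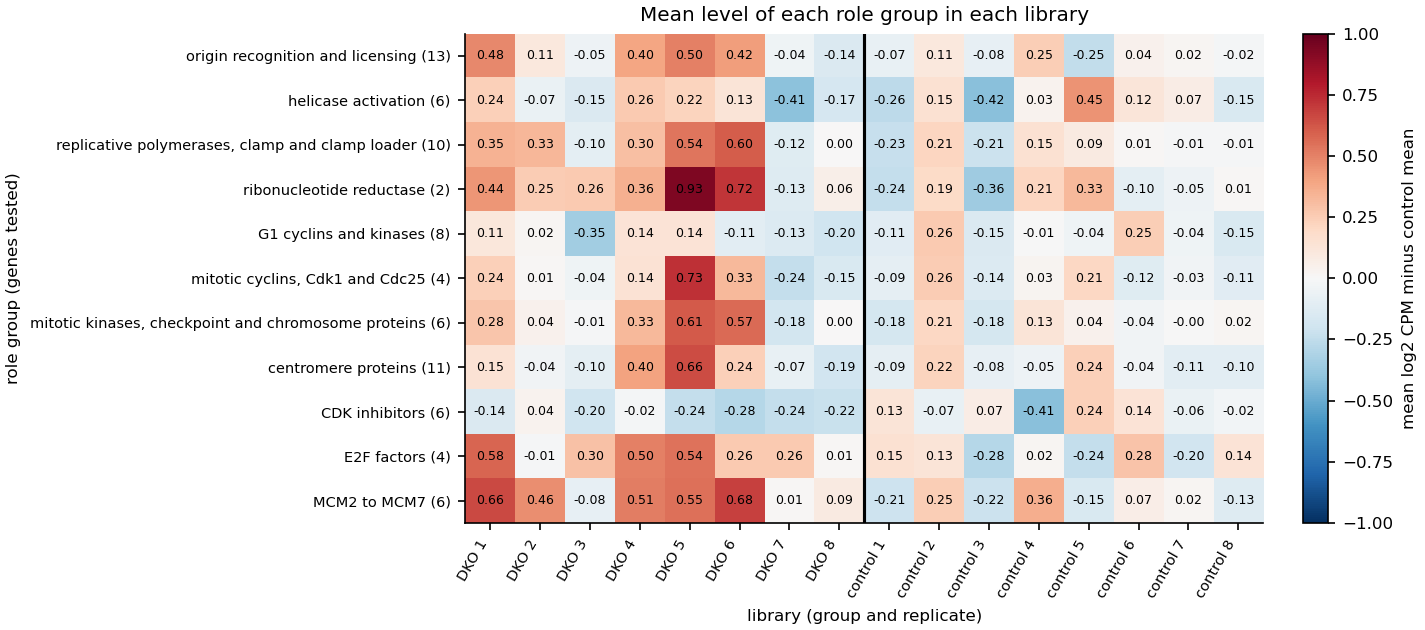
Mean log2 CPM of each role group in each library minus its mean over control libraries, with DKO libraries left of the line and control libraries right of it; numbers in cells are the plotted values and red is higher. DKO 1, 4, 5 and 6 are red in the replication and mitotic rows, and DKO 7 and 8 are near or below the control mean in most of them.

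Genes of the same processes that the choice by symbol left out were read from lists of 155 symbols, of which 133 were in the files and 122 tested. Of these 13 were higher and 2 lower, and their median log2 fold change was 0.16, with 100 of 122 positive. These are 10.7% higher, 1.64% lower and 82.0% positive, where 13.2%, 13.9% and 52.3% of all genes were. By list, 4 of 36 replication genes passed, all higher, with 33 positive, 6 of 55 mitosis genes were higher and 1 lower with 47 positive, and 3 of 31 genes of transcriptional control, G1, DNA damage and p53 were higher and 1 lower with 20 positive. Without DKO 4 the higher genes numbered 8, without DKO 7 they numbered 21 and without Control 2 they numbered 20.

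Of the named higher genes, timeless, which steadies the replication fork, measured 92.6 to 157 CPM in DKO libraries (median 116), against 70.4 to 100.1 CPM in control libraries (median 91.3), and 7 DKO libraries exceeded every control (log2 fold change 0.43 ± 0.10 (SE), edgeR adjusted p = 0.00363). The condensin subunits ncapd3 and ncapd2, which compact mitotic chromosomes, had log2 fold changes of 0.55 (edgeR adjusted p = 0.0105) and 0.42 (edgeR adjusted p = 0.0147). For cdca7a, a Myc-responsive chromatin factor, the value was 0.64 (edgeR adjusted p = 0.0113). The Myc family itself went both ways. The transcription factors myca and mycn were higher, at 0.71 (edgeR adjusted p = 0.0126) and 0.31 (edgeR adjusted p = 0.0200), whereas mycb measured 25.9 to 43.4 CPM in DKO libraries (median 32.5), against 26.0 to 64.7 CPM in control libraries (median 44.0) and was lower (log2 fold change -0.43 ± 0.15 (SE), edgeR adjusted p = 0.0378), a value that was 0.49 with scaling on cardiomyocyte markers, and 9 of the 16 fits without 1 library lost the call. The spindle midzone gene prc1b was also lower, at 30.1 to 52.4 CPM in DKO libraries (median 37.3), against 42.0 to 71.8 CPM in control libraries (median 55.3) (log2 fold change -0.56 ± 0.13 (SE), edgeR adjusted p = 0.00235), and at 0.37 with scaling on cardiomyocyte markers. Under that scaling the median log2 fold change of all genes was 0.90.

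Markers of several cell types in the dissected tissue differed between the groups. Over all genes tested, 13.9% were lower and 13.2% higher, the shares to set beside the counts below. Of 28 tested cardiomyocyte markers outside the sarcomere 18 passed, all lower, with a summed level of 8093 to 19109 CPM in DKO and 18630 to 37274 CPM in control libraries. Of 30 in the files, gja3 had no read. All 10 haemoglobin genes were lower, at a sum of 8.07 to 68.1 CPM in DKO and 3641 to 9338 CPM in control libraries. Of 23 tested endocardial and endothelial markers 12 were lower and 2 higher, with sums of 1356 to 2432 CPM in DKO and 2032 to 2946 CPM in control libraries, and plvapb had no read. Of 7 tested markers of outflow smooth muscle 3 were lower, and of 12 other erythrocyte markers 8 were lower, at a sum of 304 to 552 CPM in DKO and 695 to 1466 CPM in control libraries. Most tested markers of epidermis, pharyngeal arch and leukocytes were higher. Of 16 tested epidermal markers 12 passed, all higher, at a sum of 23669 to 52303 CPM in DKO and 6886 to 30323 CPM in control libraries. Of 17 tested pharyngeal arch and neural crest markers 12 were higher and 1 lower, at 1130 to 1719 CPM in DKO and 746 to 1363 CPM in control libraries, with dlx2b and col2a1a at no read. Of 8 tested leukocyte markers 7 were higher and 0 lower, at 482 to 1128 CPM in DKO and 361 to 627 CPM in control libraries, with mpeg1.1 at no read. Of 15 tested neuron markers 4 were higher and 0 lower. Of 4 tested epicardial markers 1 was lower, with aldh1a2 and upk3b at no read. The DKO libraries were also grouped by the ring genes' own values, after these were seen, so the split below is only a description. In DKO 1, 2, 4, 5 and 6, where most ring genes exceeded every control, the cardiomyocyte sum was 8093 to 16475 CPM. Within these, DKO 6 had the highest sum and DKO 2 the next, at 10911 CPM. The sum was 17330 to 19109 CPM in DKO 3, 7 and 8, with DKO 7 the lowest and close to DKO 6. The arch and neural crest sum was 1435 to 1719 CPM in the former libraries and 1130 to 1213 CPM in the latter. None of the other sums divided these libraries this way. The part of these cell types in the results on cell cycle genes was not tested.

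Within the groups, pcna and ccnd2a were set against 4 of these sums in 16 relations, chosen after their values were seen. The p-values given for them are therefore a description and not a planned test. Among the 8 control libraries pcna was higher where the epidermal sum was higher, with Pearson r = 0.93 (exact permutation p = 0.000843, adjusted over the 16 relations 0.0135) and Spearman rho = 0.90 (exact permutation p = 0.00456, adjusted 0.0615). Without the 2 libraries farthest from the median sum, r was 0.93. With the arch and neural crest sum r was 0.82 (exact permutation p = 0.00858, adjusted 0.0458), rho was 0.86 (exact permutation p = 0.0107, adjusted 0.0615), and r without the 2 farthest libraries was 0.67. With the cardiomyocyte sum r was -0.86 (exact permutation p = 0.00779, adjusted 0.0458), rho was -0.83 (exact permutation p = 0.0154, adjusted 0.0615), and r without the 2 farthest libraries was -0.57. With the endocardial sum r was -0.82 (exact permutation p = 0.0209, adjusted 0.0837), rho was -0.83 (exact permutation p = 0.0154, adjusted 0.0615), and r without the 2 farthest libraries was -0.60. The adjusted p of rho missed the threshold in every relation.

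Among the 8 DKO libraries pcna had the same signs, at r = 0.54 with the epidermal sum (exact permutation p = 0.172, adjusted 0.394), 0.78 with the arch sum (exact permutation p = 0.0381, adjusted 0.122), -0.64 with the cardiomyocyte sum (exact permutation p = 0.103, adjusted 0.273) and -0.43 with the endocardial sum (exact permutation p = 0.297, adjusted 0.593), none past the adjusted threshold. Without the 2 farthest libraries these were 0.31, 0.52, -0.63 and -0.75. The 8 relations of ccnd2a had r of -0.16 to 0.36, with adjusted exact permutation p of 0.682 to 0.981. Without the 2 farthest libraries r was -0.36 to 0.54 in 7 of these relations, with the sign turned for the endocardial sum (-0.36, against 0.13 with all 8 libraries) and the epidermal sum (0.08, against -0.16) in DKO, and it was -0.85 with the arch sum in controls (0.08 with all 8).

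**Figure D4:**
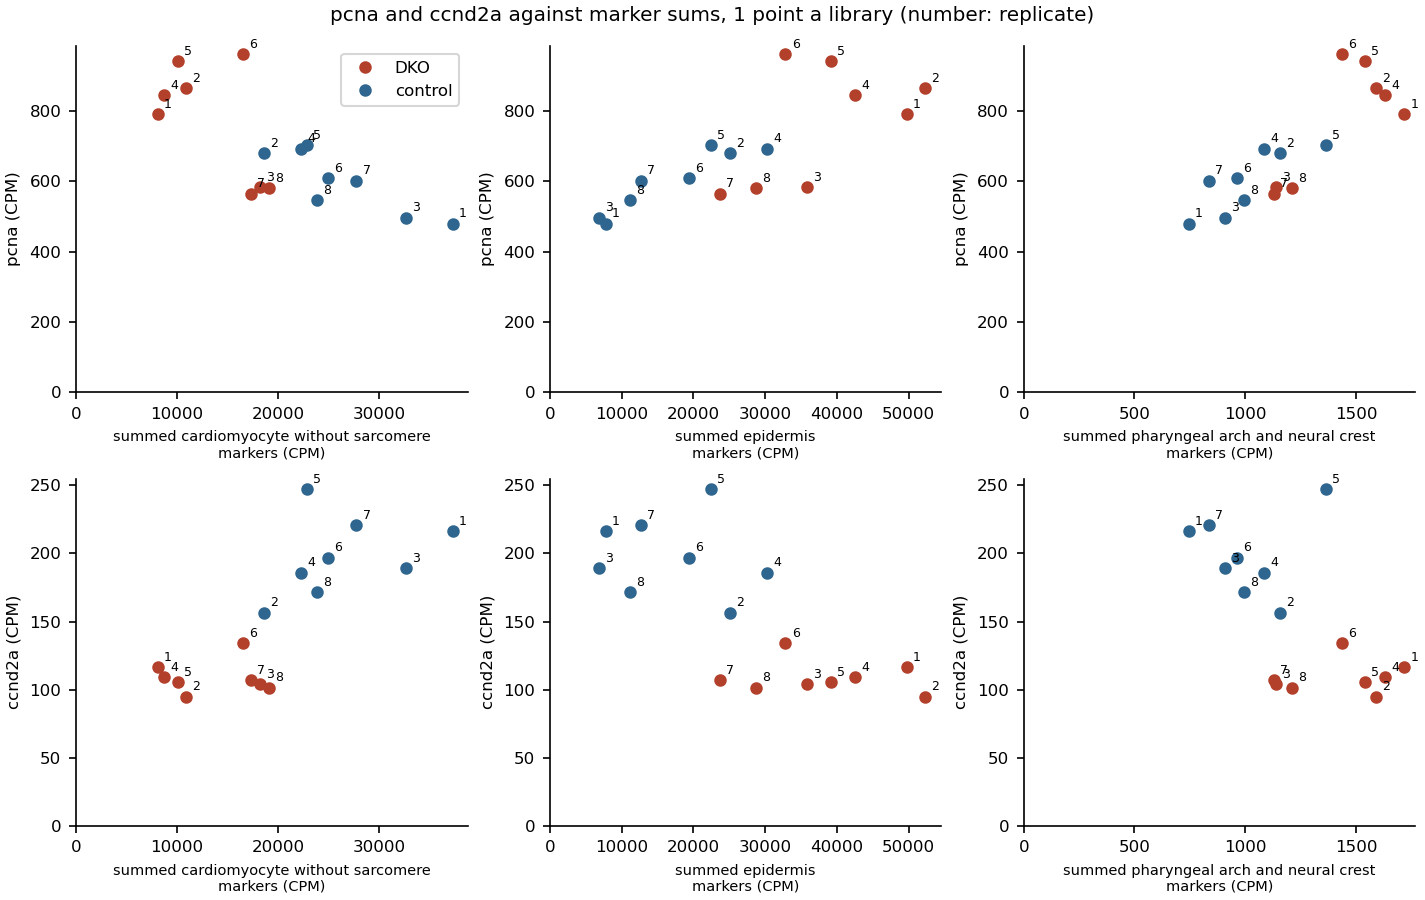
CPM of pcna (top row) and ccnd2a (bottom row) against the summed cardiomyocyte, epidermal and pharyngeal arch markers in CPM, 1 point a library, DKO in red and control in blue. The r of pcna with the epidermal sum was 0.93 among control and 0.54 among DKO libraries. The adjusted exact permutation p of rho missed the threshold in both groups. These relations were chosen after the values were seen. The level of ccnd2a separates the groups at 94.8 to 134 CPM in DKO and 157 to 247 CPM in control libraries.

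The balance of higher and lower genes depended on the scaling. With library size alone 24 of 73 genes were higher and 4 lower, where 22.2% and 9.96% of all genes were. With limma on log2(FPKM + 1) 24 of 65 were higher and 4 lower, where 25.5% and 12.7% of all genes were. With scaling on cardiomyocyte markers 68 of 73 were higher and 0 lower, where 74.2% and 1.52% of all genes were. Of the 22 genes with a negative fold change under TMM, 13 were positive with library size alone. These choices moved the median log2 fold change of all genes by 0.14 for library size and 0.88 for cardiomyocyte markers. Once the median of all tested genes was subtracted, that of the 73 genes was 0.12 with TMM, 0.13 with library size and 0.19 with cardiomyocyte markers. Measured the same way, the ring genes mcm2 to mcm7 had 0.34, 0.34 and 0.38, and the CDK inhibitors -0.20, -0.19 and -0.17.

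**Figure D5:**
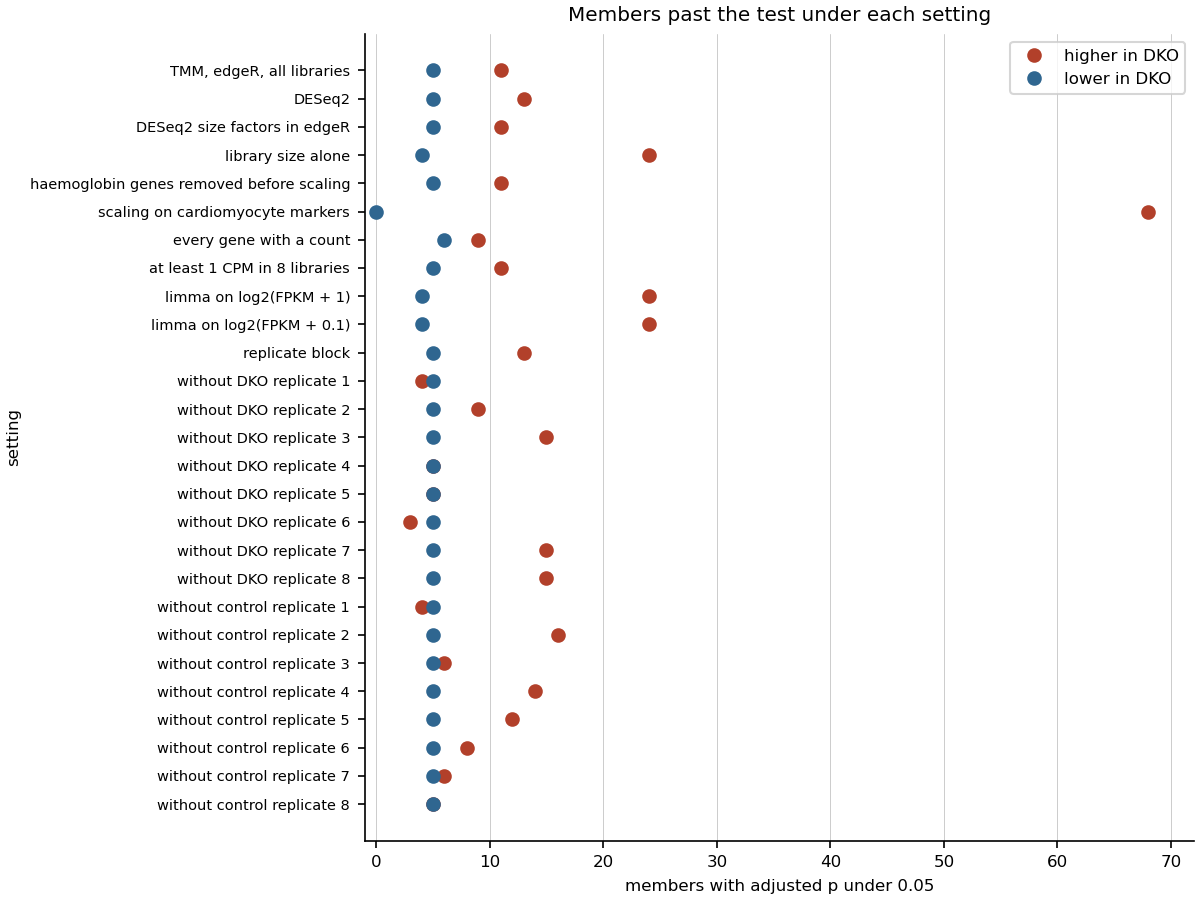
Number of genes of the 83 higher (red) and lower (blue) in DKO at an adjusted p under 0.05 in each setting, with the 16 fits without 1 library at the bottom. The lower count is 4 to 6 except with scaling on cardiomyocyte markers (0), and the higher count runs between 3 and 16 when 1 library is left out.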

How the data were processed

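RNA of dissected hearts was measured in 8 DKO and 8 control libraries (paired reads of 150 bases, poly(A)-selected). Alignment by the authors was with STAR 2.6.1a on GRCz11, and HTSeq 0.11.2 gave the deposited counts, which are unnormalized reads for each RefSeq gene; the strand setting was not given in the sources used here. The deposited FPKM were made by the authors per gene span. Entries naming no gene, 59.6% to 65.6% of reads for no feature, were left out.

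Counts were tested with edgeR 4.0.16 in R 4.3.3 (filterByExpr, TMM, robust quasi-likelihood F-test, DKO against control, no covariate, Benjamini-Hochberg over 11750 genes). Alternatives were DESeq2 1.42.0, DESeq2 size factors, library size, scaling without haemoglobins or on cardiomyocyte markers, other filters, limma 3.58.1 on log2(FPKM + 1) and log2(FPKM + 0.1), replicate block, and each library left out. Exact permutation tests were two-sided and used Python 3.11.15, and figures matplotlib 3.10.9. The procedure was tested on simulated data with 200 genes changed by 1 on the log2 scale. That size exceeds the rises of the members past the test, so the simulation does not show how well such rises are detected.

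The members and lists were chosen with earlier results of these data known. Named with full statistics were both targets, members past the test, the most abundant member by CPM of a role without any, and up to 6 related genes past the test in each direction; others are given by role. Depth sets the precision, and molecular identifiers were not used. The p-values of the group tests set the difference between the groups against the spread between pools. Symbols were read from the files. No reference sequence was used.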

Additional observations from a re-analysis of the deposited data

Results flagged for a closer look

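Of 54 groups of 8 libraries checked, 27 named genes in each genotype, 2 held 1 library far from the rest, and chance alone marks about 1 in 20 groups. The level of aurkaip1 was 130.1 CPM in Control 5, where the next highest control had 100.3 CPM. The level of ccnd2b was 10.2 CPM in Control 6, where the next highest control had 5.91 CPM. Both genes are lower in DKO libraries, and both stayed past the test without the library concerned, ccnd2b then with the smallest drop of its 16 fits (log2 fold change -0.82).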

How the results depend on the processing

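Scaling on cardiomyocyte markers, which sets the median change of those markers near 0, turned the sign of ccnd2a (0.035), aurkaip1 (0.18), cdkn1ca (0.43), cdkn1a (0.39), gins2 (0.82), prc1b (0.37) and mycb (0.49) on the log2 scale, and library size alone turned 13 of the 22 negative members, gins2 (0.017) among them. Cardiomyocyte scaling put the median log2 fold change of all genes at 0.90, and library size alone put it at 0.17. With cardiomyocyte scaling 0 members were lower and 68 higher (0 and 35 by the study's thresholds), 0 related genes lower and 117 higher, and 179 of all genes lower and 8721 higher. With library size alone 24 members were higher (1 lower and 2 higher by the study's thresholds), 1 related gene lower and 45 higher, and 2608 of all genes higher. With limma on log2(FPKM + 1) and log2(FPKM + 0.1) 24 members were higher in each (1 lower by the study's thresholds in each, and 1 higher with 0.1), 1 related gene lower and 35 higher in each, and 1049 and 1047 of all genes lower and 2103 and 2110 higher. The share of lower among all calls was 51.2% with TMM, 31.0% with library size and 2.01% with cardiomyocyte scaling.

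Without 1 library, members higher numbered 3 to 16 and lower 5 in each fit, related genes higher 8 to 21 and lower 1 to 3. Calls were lost in 11 of 16 such fits for cdc25b, cenpo and mcm2, 9 for mycb, 8 for pola1, 7 for rfc1 and e2f7, 5 for mcm7 and 2 for mki67. Same-numbered libraries did not pair (correlations of deviations -0.28 to 0.11, 3 of 8 over 0.1, and 0 numbers matched their own best). With the replicate block 13 members were higher and 5 lower, where 13.1% and 13.8% of all genes were, and 1 related gene was lower and 12 higher. There pola1 (0.44), cenpo (0.51) and mycb (-0.41) did not pass, whereas mcm3, mcm5, pcna and ccne2 did. With every gene that had a count, 9 members were higher and 6 lower, where 10.3% and 10.9% of all genes were. The causes were not tested. DESeq2 found 13 members higher and 5 lower, where 12.2% and 12.4% of all 14399 genes were. Of these genes 2226 had no adjusted p and could not be called, as was so for 5 of the 80 members, so both shares understate those over callable genes. Counts near 0 limit what can be read for cdk1, plk1 and cdc6.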

Other observations

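The clamp loader subunit rfc3 was too low for the main test, with 85 reads in all, and measured 0.0967 to 0.727 CPM in DKO libraries (median 0.180) against 0.171 to 1.28 CPM in control libraries (median 0.800). When every gene with a count was tested, rfc3 was lower at an edgeR adjusted p of 0.0477, where 10.9% of all genes were lower. The other subunits rfc1, rfc2, rfc4 and rfc5 had positive log2 fold changes of 0.11 to 0.32 in the main test. The difference between rfc3 and these subunits was not tested.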
